A study of Hakea laurina with 6 samples.

Results

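Carboxylate synthesis in cluster roots of *Hakea laurina* (Proteaceae) was described here through 4 contigs of a de novo root transcriptome, annotated as phosphoenolpyruvate carboxylase (PEPC), malate dehydrogenase, fumarase and citrate synthase. The 4 contigs were taken by name out of 183999 in the count table, of which 49813 were abundant enough to be tested. The study had picked them for being higher in mature cluster roots than in root tips in the same 6 libraries, so their difference between the root types is given as a description, and no p-value of it is used as evidence. The name of each contig is that of the Arabidopsis gene it resembled most in the annotation made by the authors, and no contig sequence was used here.

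RNA had been taken from mature cluster roots (MCR, 3 libraries) and, for comparison, from tips of the lateral roots that bear clusters (TCR, 3 libraries). Both came from seedlings of about 3 yr of age kept in a glasshouse in nutrient solution at low P, where 6.4 μM P was added at intervals of months, so that both root types sequenced grew at low P, with no P-sufficient plants among the libraries. It is not stated whether the 3 libraries of a root type came from separate plants, and p-values measure only the spread between these libraries, which may be technical. Root type was taken from the sample titles. The tissue entry filed with every library names the opposite root type, and all directions below would turn round if the titles were wrong. Of 13 annotated contigs for dividing cells (MCM proteins, PCNA, B-type cyclins and B-type CDKs), 10 were lower in the libraries titled MCR than in those titled TCR by the test described below, a call that 31.7% of all annotated contigs had in this direction. Of the rest, a PCNA2 contig (TRINITY_DN5785_c0_g1) was lower in each MCR library without passing (adjusted p = 0.0968, edgeR). A further PCNA2 contig (TRINITY_DN229078_c0_g1) and CYCB1;4 (TRINITY_DN104812_c0_g1) went the other way, with reads in MCR libraries only, and did not pass either. Both were scarce, with means of 0.333 and 0.471 CPM over the 6 libraries. The DNA replication helicase subunit MCM2 had 2.78, 2.43 and 1.34 CPM in MCR1, MCR2 and MCR3, against 61.8, 62.8 and 45.0 CPM in TCR1, TCR2 and TCR3.

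Cluster roots are dense groups of short rootlets that many Proteaceae form on P-poor soil, and at maturity they release carboxylates, mainly citrate and malate, that free phosphate bound to soil minerals. PEPC fixes bicarbonate onto phosphoenolpyruvate to give oxaloacetate. Malate dehydrogenase interconverts oxaloacetate and malate, fumarase interconverts fumarate and malate, and citrate synthase joins oxaloacetate with acetyl-CoA to give citrate. Levels are given as CPM, counts scaled to a common library total with TMM factors. The unit does not correct for contig length, so that levels are compared between libraries and not between contigs.

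The libraries held between 13583740 and 19119494 estimated counts. MCR3 stood apart from the other MCR libraries. Across the contigs tested its Spearman correlation was 0.871 with TCR3, against 0.626 with MCR1 and 0.515 with MCR2. Values without MCR3 are therefore given for the results it moved most.

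All 4 carboxylate synthesis contigs were higher in each MCR library than in any TCR library. The same held for 5322 of the 49813 contigs tested and for 1174 of the 7819 annotated contigs. Among the 4, the difference was largest for PEPC, followed by fumarase, malate dehydrogenase and citrate synthase. The threshold for a call was an adjusted p under 0.05 together with a log2 difference of at least 1 in size, in edgeR's quasi-likelihood fit of all contigs. All 4 passed it as higher in MCR, as did 1196 of the 49813 contigs (2.40%), while 2981 (5.98%) passed as higher in TCR, which makes 8.39% in either direction. The count of the 4 follows from how they were picked, and nothing is read from it.

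The PEPC contig (TRINITY_DN2771_c0_g1) matched PPC3 (AT3G14940), one of the plant-type PEPC genes of Arabidopsis. It had 6832, 7855 and 9206 CPM in MCR1, MCR2 and MCR3, against 1528, 1635 and 1613 CPM in TCR1, TCR2 and TCR3. The lowest MCR library was 4.18 times the highest TCR library. PEPC averaged 7964 ± 1191 CPM in MCR and 1592 ± 56.4 CPM in TCR (SD, n = 3 each), a log2 fold change of 2.32 ± 0.29 (SE). These levels rest on 100675 to 151423 counts per MCR library and 21348 to 29627 per TCR library. The contig alone took 0.792% of the counts of MCR3 (95% Wilson interval 0.788 to 0.796%), its highest share, and 0.157% of those of TCR1 (0.155 to 0.159%), its lowest, where the intervals cover counting error only.

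The malate dehydrogenase contig (TRINITY_DN3505_c0_g1) matched AT3G47520, which encodes a plastidial NAD-dependent enzyme in Arabidopsis. It had 746, 657 and 586 CPM in MCR1, MCR2 and MCR3, against 250.4, 291 and 266 CPM in TCR1, TCR2 and TCR3. MCR3 was the lowest MCR library for this contig and the highest for the other 3 contigs. Malate dehydrogenase averaged 663 ± 80.4 CPM in MCR and 269 ± 20.3 CPM in TCR (SD, n = 3 each), a log2 fold change of 1.30 ± 0.25 (SE), from 9637 to 10998 counts per MCR library and 3499 to 4893 per TCR library.

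The fumarase contig (TRINITY_DN611_c0_g1) matched FUM1 (AT2G47510), the mitochondrial fumarase of Arabidopsis. It had 398, 355 and 543 CPM in MCR1, MCR2 and MCR3, against 141, 143 and 138 CPM in TCR1, TCR2 and TCR3. The TCR libraries were close together, whereas MCR3 stood above both other MCR libraries. Fumarase averaged 432 ± 98.7 CPM in MCR and 141 ± 2.72 CPM in TCR (SD, n = 3 each), a log2 fold change of 1.62 ± 0.27 (SE). It rests on 5690 to 8937 counts per MCR library and 1966 to 2535 per TCR library.

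The citrate synthase contig (TRINITY_DN13857_c0_g1) matched CSY3 (AT2G42790), a peroxisomal citrate synthase in Arabidopsis. It had 340.0, 331 and 441 CPM in MCR1, MCR2 and MCR3, against 139, 151 and 168 CPM in TCR1, TCR2 and TCR3. Its lowest MCR library was 1.96 times its highest TCR library, the narrowest gap among the 4 contigs with TMM and RLE scaling, while with library size alone malate dehydrogenase had 1.61 and citrate synthase 1.62. Citrate synthase averaged 371 ± 61.4 CPM in MCR and 153 ± 14.7 CPM in TCR (SD, n = 3 each), a log2 fold change of 1.28 ± 0.26 (SE), the nearest of the 4 to the threshold of 1. It rests on 5010 to 7261 counts per MCR library and 1946 to 3095 per TCR library. In whole root pieces, fewer cells of a type and less RNA per cell cannot be told apart.

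**Figure D1:**
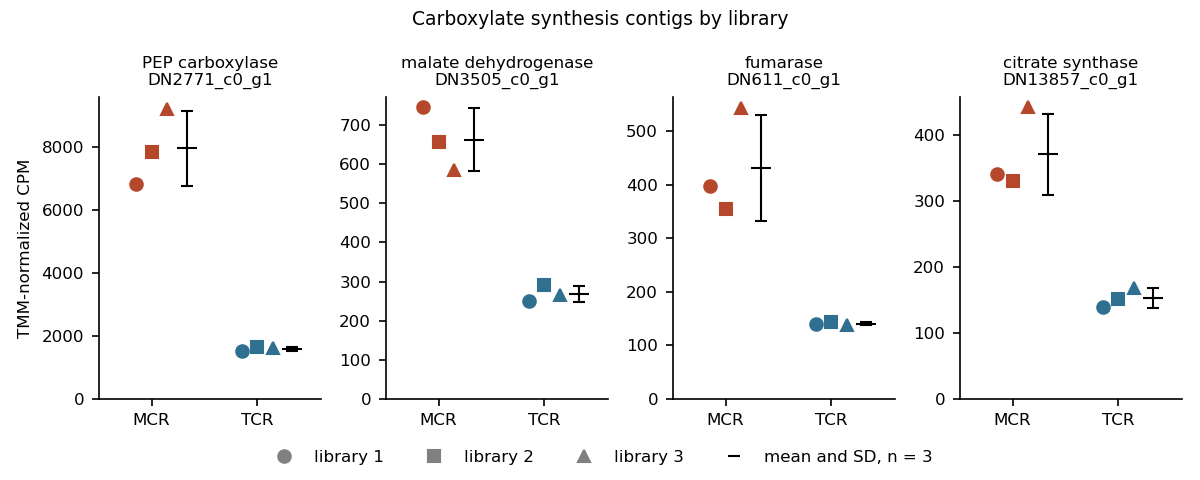
TMM-normalized CPM of the 4 carboxylate synthesis contigs in each MCR and TCR library, with a linear axis from 0 for each contig; symbols mark the library number, and bars give the mean and SD (n = 3). No MCR library overlaps a TCR library, and malate dehydrogenase is the only contig whose MCR3 value, 586 CPM, is the lowest of MCR.

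The counts alone would give a coefficient of variation of at most 2.27% for any of the contigs. Among MCR libraries it was 14.95% for PEPC, 12.1% for malate dehydrogenase, 22.9% for fumarase and 16.6% for citrate synthase. Among TCR libraries it was 3.54% for PEPC, 7.53% for malate dehydrogenase, 1.93% for fumarase and 9.63% for citrate synthase, so that the spread of fumarase in TCR was within its counting error of up to 2.26% and the others were above theirs. For 2 of the contigs the wider spread among MCR libraries depended on the scaling. With library size alone citrate synthase varied by 9.57% in MCR and 18.5% in TCR, and with RLE size factors malate dehydrogenase varied by 8.01% and 11.1%. PEPC and fumarase varied more in MCR under each scaling, with library size alone by 11.0% against 10.4% and by 15.5% against 7.51%.

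The scaling also sets the level from which a fold change is read. Over the 31373 contigs with a count in all 6 libraries, TMM gave a median log2 fold change of -0.11, RLE size factors gave 0.19 and scaling by library size alone gave -0.29. Another scaling shifts all contigs nearly alike, so their distance from this median is fixed by construction. With TMM, PEPC stood 2.43 above it, fumarase 1.72, malate dehydrogenase 1.41 and citrate synthase 1.38.

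The ratio of 2 contigs within a library needs no scaling between libraries, and contig length cancels when MCR is compared with TCR. With 3 libraries against 3, the smallest two-sided p of an exact permutation test is 0.1. No ratio could pass, and the ratios are given as a description of the 6 pairs. PEPC stood higher in MCR relative to each of the other enzymes. There were 20.1, 23.8 and 20.9 PEPC counts for each citrate synthase count in MCR1, MCR2 and MCR3, against 11.0, 10.8 and 9.57 in TCR1, TCR2 and TCR3, a log2 difference of 1.04 ± 0.10 (SE). For each malate dehydrogenase count there were 9.15, 12.0 and 15.7 PEPC counts in MCR, against 6.10, 5.62 and 6.06 in TCR, a log2 difference of 1.02 ± 0.23 (SE). For each fumarase count there were 17.2, 22.1 and 16.9 in MCR, against 10.9, 11.4 and 11.7 in TCR, a log2 difference of 0.72 ± 0.13 (SE). In these 3 ratios the root types did not overlap.

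The other 3 enzymes kept more similar proportions. The ratio of fumarase to citrate synthase was 1.17, 1.07 and 1.23 in MCR1, MCR2 and MCR3, against 1.01, 0.952 and 0.819 in TCR1, TCR2 and TCR3, a log2 difference of 0.32 ± 0.11 (SE) without overlap. Malate dehydrogenase set against fumarase gave 1.88, 1.85 and 1.08 in MCR and 1.78, 2.03 and 1.93 in TCR, and MCR3 alone lay below the TCR range. Against citrate synthase, malate dehydrogenase gave 2.20, 1.99 and 1.33 in MCR and 1.80, 1.93 and 1.58 in TCR, which overlapped. The log2 differences of these last ratios, -0.30 ± 0.27 and 0.03 ± 0.24 (SE), were smaller than the spread between MCR libraries, 0.46 and 0.38 (SD of the log2 ratio, n = 3). Without MCR3 they were -0.03 and 0.24, and that of PEPC to malate dehydrogenase was 0.82.

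**Figure D2:**
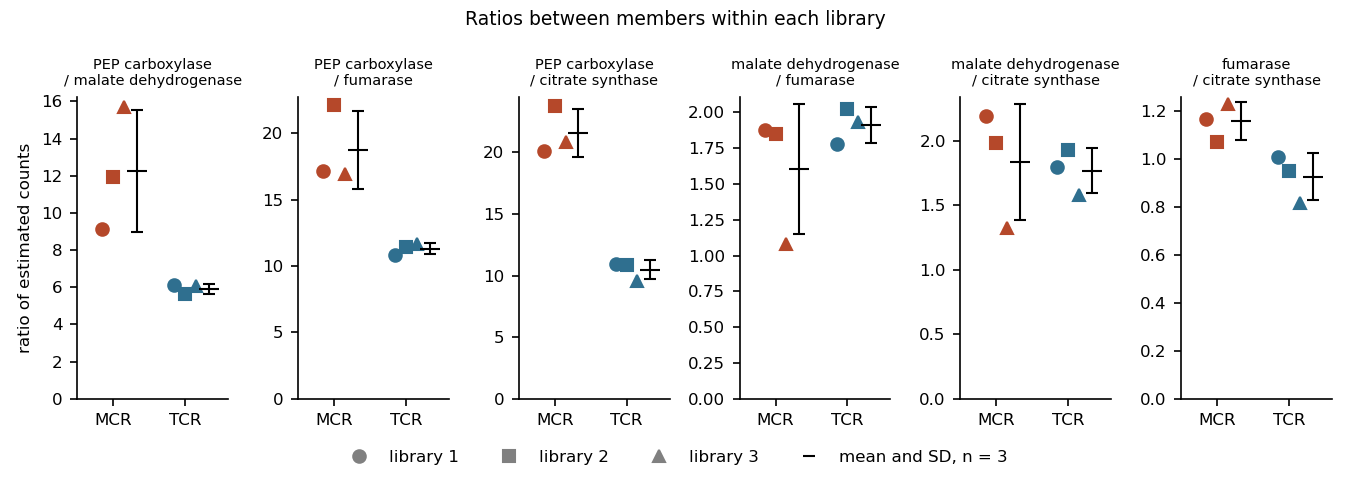
Ratio of the estimated counts of each of the 6 pairs of carboxylate synthesis contigs within each MCR and TCR library, on linear axes from 0; symbols mark the library number, and bars give the mean and SD (n = 3). PEPC over citrate synthase lies between 20.1 and 23.8 in MCR and between 9.57 and 11.0 in TCR, while both malate dehydrogenase ratios to fumarase and to citrate synthase fall lowest in MCR3.

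Trinity groups contigs that share sequence into components, and reads of a near-identical copy may be split among them. The PEPC component held 6 contigs, of which the contig described here took between 83.9 and 97.2% of the counts in each library. A smaller contig of it with the same PPC3 match, TRINITY_DN2771_c0_g3, had 94.2, 141 and 506 CPM in MCR1, MCR2 and MCR3, against 48.1, 56.8 and 77.9 CPM in TCR1, TCR2 and TCR3. Its root types did not overlap, and its log2 fold change of 2.02 ± 0.64 (SE) had an adjusted p of 0.109 in edgeR's quasi-likelihood test. With the replicate number as a block the adjusted p was 4.08e-04, in a fit where nearly every annotated contig passed the threshold. Without MCR3 the log2 fold change of TRINITY_DN2771_c0_g3 was 0.87 (adjusted p = 0.0867, edgeR). TRINITY_DN2771_c1_g1, which has no annotation here, had 19.4, 14.6 and 12.9 CPM in MCR and 4.94, 5.64 and 3.59 CPM in TCR (log2 fold change 1.73 ± 0.40 SE, adjusted p = 0.0416, edgeR). TRINITY_DN2771_c0_g2 went the other way, with 55.8, 38.9 and 146 CPM in MCR and 109.5, 108 and 187 CPM in TCR, ranges that overlap (log2 fold change -0.75, adjusted p = 0.332, edgeR). It passed the threshold without MCR3, at -1.58 (adjusted p = 0.0421, edgeR). TRINITY_DN2771_c0_g4 had 30.6 to 66.0 CPM in MCR and 39.7 to 50.9 CPM in TCR, and TRINITY_DN2771_c2_g1 had at most 7 counts in any library.

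The malate dehydrogenase component held a second contig, TRINITY_DN3505_c0_g2, with 38.0, 18.7 and 23.3 CPM in MCR1, MCR2 and MCR3, against 64.6, 70.1 and 34.5 CPM in TCR1, TCR2 and TCR3. It has no annotation here, and its log2 fold change was negative where that of its larger neighbour was positive (-1.08 ± 0.40 SE, adjusted p = 0.157, edgeR). Its root types overlapped, MCR1 lying above TCR3. With both contigs summed, the log2 fold change of malate dehydrogenase was 1.08 in place of 1.30. The PEPC contigs of the same gene cluster summed to 2.19 in place of 2.32. The fumarase component held 7 contigs, of which the contig described here took at least 96.9% of the counts in each library. One of the small ones, TRINITY_DN611_c3_g2, had 11, 17 and 15 counts in MCR1, MCR2 and MCR3, against 0, 0 and 0 in TCR. Citrate synthase was the only contig of its component.

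The surrounding pathway was taken from 14 lists of annotation words around PEPC, pyruvate and the tricarboxylic acid and glyoxylate cycles, which gave 102 annotated contigs, all of them tested. The words also took in some other enzymes, such as 2-isopropylmalate synthase (TRINITY_DN1209_c0_g1). Only the 7819 contigs of the authors' table of differing contigs carry a name, so these lists hold contigs that were themselves selected on MCR against TCR. Of the 102, 12 (11.8%) passed the threshold as higher in MCR and 3 (2.94%) as higher in TCR. Among all annotated contigs the shares were 10.2% and 31.7%. Without the 4 carboxylate synthesis contigs, 8 of 98 passed as higher in MCR (8.16%) and 3 as higher in TCR. With the replicate number as a block, 94 of the 102 passed on the MCR side and 8 on the TCR side, beside 53.0% and 46.0% of all annotated contigs in that fit. Nearly every annotated contig thus passed with the block, and a pass in that fit sets no annotated contig apart. Without MCR3, 45 and 8 of 100 passed, beside 25.2% and 36.5%. Without TCR1 or without TCR2, 1 of 102 passed on the MCR side, beside 168 of 7814 and 203 of 7817 annotated contigs in those fits.

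Most of the 102 contigs were spread unevenly over the MCR libraries. A contig was called uneven where the lowest library of its higher root type was under 0.1 of the mean of the other 2, which held for 77 of them, all on the MCR side, and the lowest library was MCR3 in 58, MCR1 in 16 and MCR2 in 3. They were also scarce, with a median of 1.36 CPM over the 6 libraries, against 202 CPM for the 25 others. The median log2 fold change was 4.50 over all 102 contigs and 1.37 over the 25, beside 1.904 over all annotated contigs. The uneven contigs summed to 556, 1137 and 497 CPM in MCR1, MCR2 and MCR3, against 37.6, 40.0 and 18.6 CPM in TCR1, TCR2 and TCR3. The 25 others summed to 14830, 15170 and 20068 CPM in MCR, against 5289, 5617 and 5247 CPM in TCR, so that they carried most of the counts of the 102 contigs in every library. Much of this sum was the 4 carboxylate synthesis contigs, and the 21 contigs without them summed to 6514, 5973 and 9292 CPM in MCR, against 3230, 3397 and 3061 CPM in TCR. Contigs outside the authors' table of differing contigs have no name here, so these sums are not those of the whole pathway. Of these 21, 7 passed the threshold as higher in MCR and 3 as higher in TCR, beside 16.7% and 53.0% of all annotated contigs that were not uneven.

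**Figure D3:**
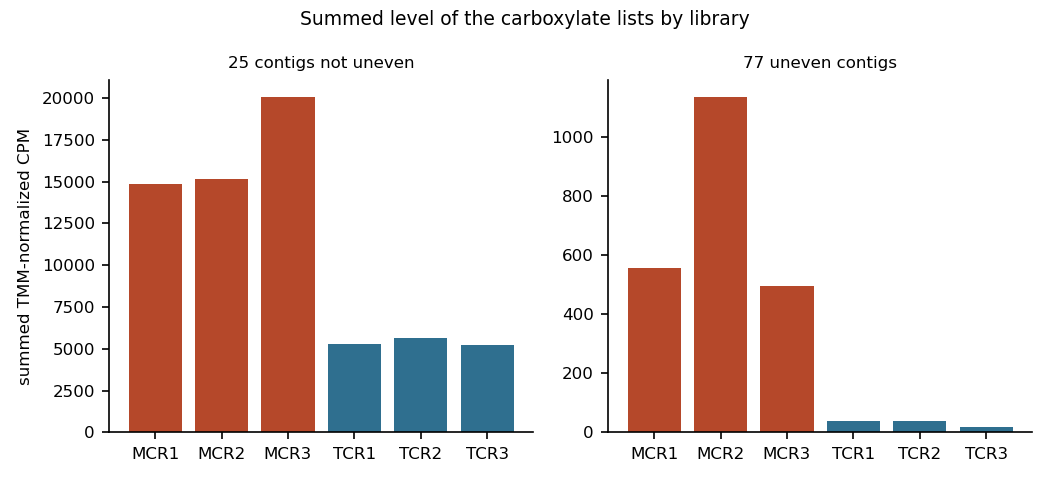
Summed TMM-normalized CPM of the annotated carboxylate pathway contigs in each library, for the 25 contigs that were not uneven and the 77 that were; each bar is 1 library, and the vertical scales differ. MCR2 holds 1137 CPM of uneven contigs, against 556 in MCR1 and 497 in MCR3, and no TCR library exceeds 40.0.

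The annotated neighbours of PEPC in the pathway moved in both directions. The bacterial-type isoform PPC4 (TRINITY_DN12808_c0_g1) had 21.4, 20.1 and 11.4 CPM in MCR1, MCR2 and MCR3, against 50.0, 48.7 and 106 CPM in TCR1, TCR2 and TCR3, and fell in MCR (log2 fold change -1.95 ± 0.43 SE, adjusted p = 0.0376, edgeR). PPCK1 (TRINITY_DN6768_c0_g1), the kinase that phosphorylates PEPC and lessens its inhibition by malate, had 122, 377 and 376 CPM in MCR and 88.5, 109 and 140.5 CPM in TCR. MCR1 lay within the TCR range, and the adjusted p was 0.128 in edgeR's quasi-likelihood test and 0.00724 with the replicate block. PEP carboxykinase PCK1 (TRINITY_DN1559_c0_g1), which turns oxaloacetate back into phosphoenolpyruvate, had 1972, 1747 and 2402 CPM in MCR and 208, 199 and 112 CPM in TCR. Its log2 fold change of 3.56 ± 0.37 (SE, adjusted p = 0.0040, edgeR) was larger than that of PEPC, and it passed the threshold in all 15 refits of the full set of contigs.

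Carbonic anhydrases interconvert carbon dioxide and bicarbonate, the substrate of PEPC. The alpha-type CAH1 (TRINITY_DN6485_c0_g1) rose in MCR, with 98.5, 94.5 and 145 CPM in MCR1, MCR2 and MCR3, against 3.72, 3.56 and 22.2 CPM in TCR1, TCR2 and TCR3 (log2 fold change 3.52 ± 0.79 SE, adjusted p = 0.0382, edgeR). The beta-type CA2 (TRINITY_DN24187_c0_g1) fell, with 11.2, 7.80 and 10.2 CPM in MCR and 30.1, 36.0 and 31.7 CPM in TCR (log2 fold change -1.74 ± 0.30 SE, adjusted p = 0.0169, edgeR). A pyruvate kinase (TRINITY_DN58485_c0_g1), which draws on phosphoenolpyruvate as PEPC does, also fell in MCR (28.6, 21.0 and 17.6 CPM, against 53.2, 50.7 and 60.6 CPM in TCR; log2 fold change -1.29 ± 0.29 SE, adjusted p = 0.0393, edgeR). The remaining pyruvate kinase, PEP carboxykinase and carbonic anhydrase contigs, 12 of 16, were all uneven.

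The lists of the other enzymes described above held 12 malate dehydrogenase contigs, 3 fumarase contigs and 5 citrate synthase contigs, all tested. The 12 include contigs annotated only as lactate/malate dehydrogenase family proteins, such as TRINITY_DN18224_c0_g1. These counts include the contigs described above, which were the ones that passed the threshold. Of the 12, 10 were uneven, as were 2 of the 3 and 4 of the 5. The uneven malate dehydrogenase contigs summed to 41.8, 58.3 and 0 CPM in MCR1, MCR2 and MCR3, against 1.72, 1.84 and 0 CPM in TCR1, TCR2 and TCR3. They were thus without a read in both libraries numbered 3.

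On the aconitase and isocitrate dehydrogenase list, 2 of 9 contigs passed the threshold as higher in MCR. On the pyruvate dehydrogenase complex list 1 of 9 did, beside 10.2% of all annotated contigs, and the remaining contigs of both lists were uneven. ACO1 (TRINITY_DN3567_c0_g1), an aconitase that converts citrate to isocitrate, had 61.8, 58.5 and 73.7 CPM in MCR1, MCR2 and MCR3, against 12.8, 14.9 and 18.9 CPM in TCR1, TCR2 and TCR3 (log2 fold change 2.06 ± 0.29 SE, adjusted p = 0.0087, edgeR). IDH1 (TRINITY_DN558_c0_g1), a subunit of NAD-dependent isocitrate dehydrogenase, had 470.2, 413 and 465 CPM in MCR and 171, 177 and 126 CPM in TCR (log2 fold change 1.51 ± 0.26 SE, adjusted p = 0.0177, edgeR). mtLPD1 (TRINITY_DN2101_c0_g1), the lipoamide dehydrogenase shared by mitochondrial 2-oxoacid dehydrogenases, had 1029, 966 and 1176 CPM in MCR and 398, 440.2 and 362 CPM in TCR (log2 fold change 1.40 ± 0.26 SE, adjusted p = 0.0199, edgeR). In none of these contigs did a TCR library reach an MCR library.

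Succinate dehydrogenase oxidizes succinate to fumarate, the substrate of fumarase. SDH2-2, its iron-sulfur subunit, had 2 contigs that were not uneven. TRINITY_DN1163_c0_g2 had 276, 229 and 438 CPM in MCR1, MCR2 and MCR3, against 111, 116 and 117 CPM in TCR1, TCR2 and TCR3, and passed the threshold (log2 fold change 1.45 ± 0.32 SE, adjusted p = 0.0344, edgeR). TRINITY_DN1163_c0_g1 and the flavoprotein SDH1-1 (TRINITY_DN7263_c0_g1) were also higher in each MCR library, with log2 fold changes of 1.37 ± 0.38 and 1.11 ± 0.29 (SE), and missed the threshold (adjusted p = 0.0709 and 0.0640, edgeR, and 0.00396 and 0.0155 with the replicate block). In both, as in fumarase, MCR3 was the highest library.

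ATP-citrate lyase, a cytosolic enzyme, splits citrate into acetyl-CoA and oxaloacetate. Of the 8 contigs of its list, 4 were uneven and 3 of the others had lower levels in MCR. ACLA-3 (TRINITY_DN4460_c0_g1) had 51.6, 25.6 and 176 CPM in MCR1, MCR2 and MCR3, against 312, 324 and 226 CPM in TCR1, TCR2 and TCR3, and ACLB-2 (TRINITY_DN638_c0_g2) had 99.4, 56.7 and 211 CPM in MCR, against 399, 405 and 385 CPM in TCR. A further ACLB-2 contig (TRINITY_DN638_c0_g1) had 37.1, 19.6 and 159.6 CPM in MCR and 279, 308 and 209.7 CPM in TCR. Every MCR library lay below every TCR library in all 3 contigs, with MCR3 the nearest to TCR. None passed the threshold with 6 libraries (adjusted p = 0.162, 0.0770 and 0.171, edgeR), and each did without MCR3. Each also passed with the replicate block (adjusted p = 1.78e-05, 4.75e-05 and 4.71e-06), as did nearly every annotated contig. The contig of this list that passed as higher in MCR (TRINITY_DN6215_c0_g1, log2 fold change 1.31 ± 0.29 SE, adjusted p = 0.0365, edgeR) matched AT2G20420. The 4 uneven contigs matched it too. The authors' annotation words place AT2G20420 in the ATP-citrate lyase family, but in Arabidopsis it encodes a succinyl-CoA ligase subunit.

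Malate synthase (TRINITY_DN4496_c0_g1), which makes malate in the glyoxylate cycle, was the uneven contig that passed the threshold, with 27.3, 112 and 436 CPM in MCR1, MCR2 and MCR3, against 7.87, 9.01 and 12.4 CPM in TCR1, TCR2 and TCR3 (log2 fold change 4.29 ± 0.96 SE, adjusted p = 0.0385, edgeR). Without MCR3 its log2 fold change was 2.74 (adjusted p = 0.0309, edgeR). NADP-malic enzyme turns malate into pyruvate, and 2 contigs with a match to NADP-ME4 were not uneven. TRINITY_DN238_c0_g3 had 104, 58.9 and 17.9 CPM in MCR and 27.1, 25.1 and 8.87 CPM in TCR. Its root types overlapped, and it missed the threshold (adjusted p = 0.192, edgeR). TRINITY_DN238_c0_g2 had 1.76, 0.187 and 2.01 CPM in MCR, against 19.8, 17.8 and 7.51 CPM in TCR, without overlap, and missed the threshold as well (log2 fold change -3.51 ± 0.88 SE, adjusted p = 0.0547, edgeR). The single carboxylate carrier on the lists, the mitochondrial dicarboxylate carrier DIC2, was uneven, with 53.7, 0.062 and 10.5 CPM in MCR and 0, 0.061 and 4.79 CPM in TCR.

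**Figure D4:**
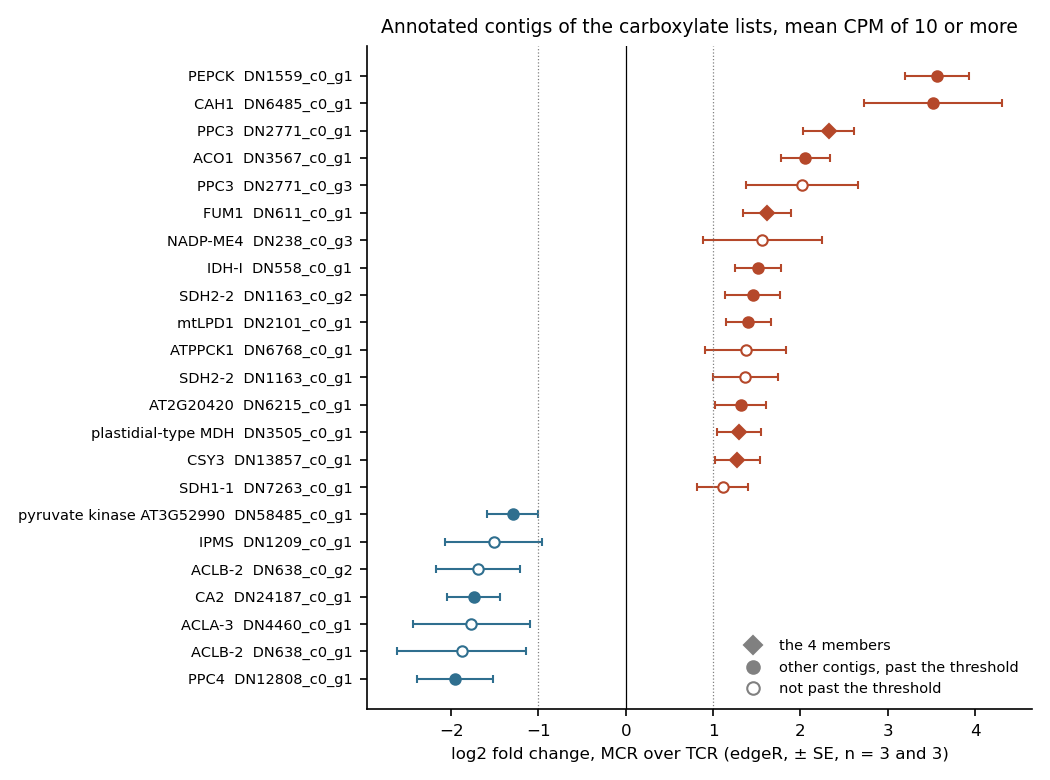
Log2 fold change of MCR over TCR for the annotated carboxylate pathway contigs with a mean of 10 CPM or more that were not uneven (edgeR fit of 3 MCR and 3 TCR libraries, bars ± SE); diamonds are the 4 carboxylate synthesis contigs, filled symbols passed the threshold, and dotted lines mark a log2 fold change of 1 in either direction. PCK1 (PEPCK) lies farthest toward MCR at 3.56 and PPC4 farthest toward TCR at -1.95, and 3 ATP-citrate lyase subunit contigs lie on the TCR side with open symbols.

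PCK1 was the exception among the pathway contigs that passed, since each of the others named here missed the threshold without TCR1 and without TCR2. ACO1, IDH1 and mtLPD1 missed it under no other refit, with an adjusted p of at most 0.0752, 0.124 and 0.156 over the edgeR, DESeq2 and limma-voom refits. CA2 and CAH1 also missed it without MCR1 or without MCR2 and reached at most 0.120 and 0.141, and CAH1 missed it under both other scalings. PPC4 and the pyruvate kinase contig missed it in 8 of the 15 refits, with RLE size factors and both stricter filters among them, and reached 0.156 and 0.186. The SDH2-2 contig missed it also without TCR3 or MCR1, malate synthase without TCR3 or MCR2 and with limma-voom, and TRINITY_DN6215_c0_g1 without TCR3 or MCR3, and the adjusted p was at most 0.191, 0.179 and 0.204. None of these contigs changed direction in any of the 15 refits, which was all but fixed, since with TMM scaling the root types overlapped in none of them.

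The level of each carboxylate synthesis contig across the 6 libraries was set beside those of 3347 annotated contigs with a mean of 10 CPM or more. Likeness was the root mean square difference of log2 CPM, each contig centred on its own mean, and it describes 6 libraries that share depth and scaling. The difference between MCR and TCR enters it, so likeness in part restates the fold changes. All contigs compared were selected on that difference, and nothing further is read from likeness. The pattern most like that of PEPC was that of the sulfate transporter family member SULTR3;4 (TRINITY_DN402_c0_g1, difference 0.083), with 338, 454 and 457 CPM in MCR1, MCR2 and MCR3, against 84.2, 83.5 and 82.1 CPM in TCR1, TCR2 and TCR3. The peptide transporter PTR2 (TRINITY_DN2646_c0_g1, 0.133) and a CBS and PB1 domain protein (TRINITY_DN591_c0_g2, 0.137) came next. The pattern most like that of citrate synthase was that of ACX4 (TRINITY_DN4980_c0_g1, 0.036), an acyl-CoA oxidase of fatty acid β-oxidation, with 216, 204 and 264 CPM in MCR and 81.9, 90.9 and 104 CPM in TCR. The 14-3-3 protein GRF2 (TRINITY_DN7166_c0_g2, 0.040) and the catalase CAT2 (TRINITY_DN1520_c0_g1, 0.109) followed.

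Malate dehydrogenase was most like a dihydrolipoamide succinyltransferase (TRINITY_DN8251_c0_g1, 0.131), a component of the 2-oxoglutarate dehydrogenase complex, then VEP1 (TRINITY_DN4931_c0_g1, 0.147) and PGL3 (TRINITY_DN560_c0_g1, 0.159). Fumarase was most like a protein of unknown function (TRINITY_DN130009_c0_g1, 0.112), a stress responsive barrel domain protein (TRINITY_DN2976_c0_g2, 0.113) and the glyoxylate reductase GLYR1 (TRINITY_DN59915_c1_g1, 0.116). Among the 4 contigs themselves, fumarase and citrate synthase were closest (0.194) and PEPC and malate dehydrogenase farthest apart (0.557). None of the 4 was among the 3 contigs most like another.

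The 4 contigs kept their direction in all 17 alternatives, which changed the filter, the scaling, the test, the replicate block, the libraries or the contigs summed. Their root types did not overlap with TMM, RLE or library size alone, so the direction was all but fixed and nothing is read from it. The log2 fold change of PEPC lay between 2.12 and 2.68 and that of fumarase between 1.34 and 2.01. That of malate dehydrogenase lay between 1.08 and 1.65 and that of citrate synthase between 1.05 and 1.62. Without MCR3 the values were 2.12 for PEPC, 1.30 for malate dehydrogenase, 1.34 for fumarase and 1.05 for citrate synthase.

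**Figure D5:**
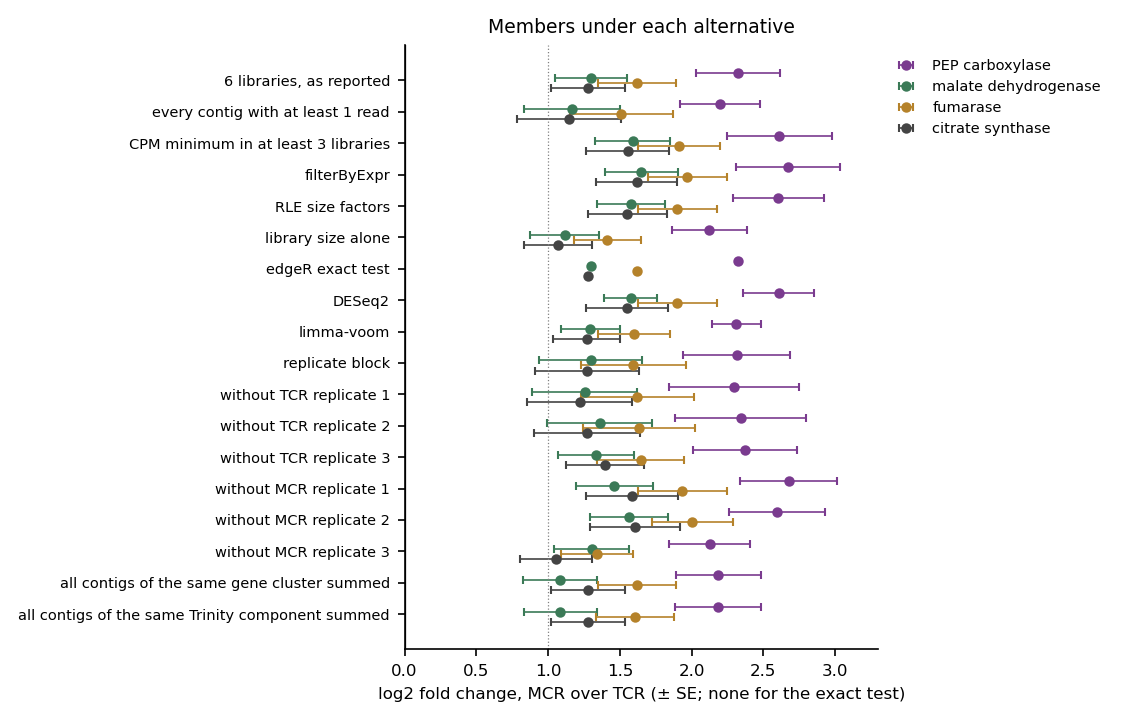
Log2 fold change of MCR over TCR for the 4 carboxylate synthesis contigs with all 6 libraries (top line) and under each of 17 alternatives (bars ± SE, none for the exact test); the dotted line marks a log2 fold change of 1. PEPC lies to the right of the other contigs on each line, from 2.12 to 2.68, and citrate synthase comes nearest to 1, at 1.05 without MCR3.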

How the data were processed

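RNA-Seq was made on poly(A) RNA from 3 MCR and 3 TCR libraries. The authors trimmed reads with Trimmomatic 0.39, assembled them with Trinity and deposited Salmon 1.9.0 estimated counts of each contig, not normalized (versions from the submitters' processing notes). They were rounded to whole numbers here. The authors' deposited table of differing contigs also holds normalized CPM, log2 fold changes, p-values and q-values, and only its annotation was used. No annotation, length or sequence of other contigs was used here.

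Contigs averaging at least 0.4 CPM in 1 root type or both were kept, scaled with TMM factors (0.868 to 1.18) and compared with edgeR 4.0.16 in R 4.3.3 (quasi-likelihood test, Benjamini-Hochberg adjustment over 49813 contigs, threshold at an adjusted p of 0.05 and a log2 difference of 1). The standard error is the log2 fold change divided by the square root of F. The test was tested on simulated data. Ratios were computed with pandas 2.3.3 and numpy 2.4.6 in Python 3.11.15. Named contigs are the 4 enzymes, the contigs of their components, list contigs of the same enzymes or of PEPC kinase with a mean of 10 CPM or more, other list contigs past the threshold and the 3 contigs most like each enzyme. Other list contigs were picked for naming once their values were known. The members and the lists were chosen with earlier results of these data known.

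Libraries were checked for pairing by number through their deviations from the root type means. Over 14706 contigs with a mean above 5 CPM, Pearson's r across contigs, which are not independent replicates, was 0.336 for number 1, 0.363 for number 2 and 0.477 for number 3. Between different numbers it was 0.316 for MCR1 with TCR2, 0.185 for MCR2 with TCR1 and negative otherwise. The numbers come from the titles, and the number also entered a second fit as a block. The other alternatives were filters on low counts, scaling by library size or by RLE size factors, limma-voom (limma 3.58.1), DESeq2 1.42.0, the exact test of edgeR, no fold-change minimum, each library left out in turn and contigs summed.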

Additional observations from a re-analysis of the deposited data

How the results depend on the processing

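The number of contigs past the threshold was 4177 with 6 libraries. Testing every contig that had a read gave 9240. It was 6552 with the edgeR exact test, 9293 with DESeq2 and 17704 with the replicate block, and lay between 535 (without TCR1) and 7460 (without MCR3) with 1 library left out. It was 651 without TCR2, 2593 without MCR1 and 2426 without MCR2. The 12 carboxylate pathway contigs higher in MCR became 93 when each contig with a read was tested, 20 with the edgeR exact test, 44 with DESeq2 and 94 with the replicate block, and 1 (without TCR1 or TCR2) to 45 (without MCR3) with 1 library left out. The 3 higher in TCR became 8 when each contig with a read was tested, 1 with RLE size factors, 5 with library size alone, the exact test, DESeq2 or limma-voom and 8 with the replicate block, and 0 to 8 with 1 library left out. Apart from the replicate block and the fits without MCR3, TCR1 or TCR2, the share of all annotated contigs was not computed for these settings. The lists hold contigs selected on MCR against TCR, so nothing is read about the pathway from these counts. Leaving out uneven contigs, or contigs whose words name another enzyme, both chosen after seeing the data, gave 11 and 3. Between 0 (without TCR1 or TCR2) and 4 of the carboxylate synthesis contigs passed with 1 library left out, and all 4 in the other alternatives. Fits with a library left out test fewer samples, and otherwise the cause was not tested. Without MCR1, 3 of the 4 passed, citrate synthase being the one that missed. The replicate block left the call of the 4 contigs as it was. Adding 1 count moved no ratio beyond the spread between libraries. The uneven contigs had a median of 1.36 CPM. MCR3, the deepest library, was alone the lowest MCR library in 58 of 77, and the part of depth in this was not tested.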
